A study of Mus musculus with 15 samples.

Results

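NF-kB is a family of dimeric transcription factors, and 10 of its genes were described here: the subunits Nfkb1, Nfkb2, Rel, Rela and Relb, and the inhibitors Nfkbia, Nfkbib, Nfkbie, Nfkbiz and Tnfaip3. They were chosen by symbol among 20660 genes that the array's probes could be matched to. The 10 genes carry 14 probes of 55681, and all 14 passed a filter on dim probes (flagged well above background by the scanner software on 3 or more arrays) that kept 42180 probes. For this filter every member had all of its probes measured, so none was lost to low signal. Each gene was read from its brightest probe, and the other probes of Nfkb1, Relb and Nfkbib are given beside it.

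Messenger RNA was measured on 1-colour Agilent arrays in whole pancreas of male C57BL/6J mice, 1 array for each animal. There were 4 wild type mice given saline (replicates 5 to 8), 4 wild type mice given cerulein (replicates 9 to 12), 3 transgenic mice given saline (replicates 2 to 4) and 4 transgenic mice given cerulein (replicates 13 to 16). All had fasted for 18 h, received a single intraperitoneal injection of saline, with or without 50 µg/kg of the cholecystokinin analogue cerulein, and were killed 3 h later. Saline animals are nevertheless labelled 0 h. The series title ties the transgene to betacellulin (Btc), a ligand of EGFR and ERBB4. The series text gives 4 animals in a group, and 3 arrays of the transgenic saline group were analysed. The age of the mice and the promoter that drives the transgene are not given in the sources used here.

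In resting cells NF-kB dimers are held in the cytoplasm by IkB proteins, which the genes Nfkbia, Nfkbib and Nfkbie encode. Kinases of the IKK complex mark the IkB proteins for destruction, and the dimers then enter the nucleus and raise the transcription of chemokine, adhesion and survival genes. Some of these targets are the inhibitors themselves, so that Nfkbia and Tnfaip3 close a feedback loop. In acinar cells of the pancreas, cerulein above its physiological range is known to activate NF-kB early in experimental pancreatitis. Most of this regulation acts on protein location and stability, which arrays do not measure.

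Promoter sequence is shown for 5 members, because several of these genes are known targets of the factor they encode or inhibit. RefSeq windows on GRCm38.p6, from 250 bases before to 50 bases after an annotated transcript start, were at hand for 7 of the 10 members in 10 windows; there was none for Nfkb1, Relb and Nfkbiz. Capitals mark matches to the kappaB consensus, a 10 letter motif searched on both strands, and overlapping matches form 1 run of capitals. Each sequence reads in the direction of transcription.
Rela, chr19:5637291-5637590, plus strand: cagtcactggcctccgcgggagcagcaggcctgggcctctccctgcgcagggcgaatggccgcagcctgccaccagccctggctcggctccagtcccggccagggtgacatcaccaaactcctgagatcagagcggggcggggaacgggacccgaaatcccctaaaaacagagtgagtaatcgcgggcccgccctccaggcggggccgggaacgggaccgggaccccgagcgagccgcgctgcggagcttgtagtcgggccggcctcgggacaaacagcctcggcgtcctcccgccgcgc
Rel, chr11:23770920-23771219, minus strand: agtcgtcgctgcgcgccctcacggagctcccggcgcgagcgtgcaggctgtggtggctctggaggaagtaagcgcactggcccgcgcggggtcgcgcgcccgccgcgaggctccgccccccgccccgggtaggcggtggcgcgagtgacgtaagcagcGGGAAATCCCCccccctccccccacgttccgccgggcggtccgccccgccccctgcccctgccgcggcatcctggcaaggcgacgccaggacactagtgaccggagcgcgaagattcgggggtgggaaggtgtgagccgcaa
Nfkb2, chr19:46304487-46304786, plus strand: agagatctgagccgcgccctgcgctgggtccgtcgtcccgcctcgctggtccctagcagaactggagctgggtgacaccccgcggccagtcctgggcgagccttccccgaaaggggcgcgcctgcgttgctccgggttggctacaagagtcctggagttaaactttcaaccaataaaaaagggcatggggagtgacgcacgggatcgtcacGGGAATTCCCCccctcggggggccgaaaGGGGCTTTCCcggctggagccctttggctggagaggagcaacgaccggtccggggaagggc
Nfkbia, chr12:55492598-55492897, minus strand: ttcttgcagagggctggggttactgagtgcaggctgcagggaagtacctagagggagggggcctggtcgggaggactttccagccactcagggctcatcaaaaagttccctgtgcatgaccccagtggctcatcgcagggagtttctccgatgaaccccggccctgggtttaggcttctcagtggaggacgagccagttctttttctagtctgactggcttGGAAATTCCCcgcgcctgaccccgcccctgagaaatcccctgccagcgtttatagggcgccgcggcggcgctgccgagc
Tnfaip3, chr10:19015361-19015660, minus strand: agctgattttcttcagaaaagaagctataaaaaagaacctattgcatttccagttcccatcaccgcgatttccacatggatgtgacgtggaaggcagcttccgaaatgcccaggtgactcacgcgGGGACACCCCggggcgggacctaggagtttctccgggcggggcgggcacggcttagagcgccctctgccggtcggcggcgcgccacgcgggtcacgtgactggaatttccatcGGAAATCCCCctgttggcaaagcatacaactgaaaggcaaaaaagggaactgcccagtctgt

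The consensus was found in 5 of the 7 members with a window (Nfkb2, Rel, Nfkbia, Nfkbie and Tnfaip3) and in 7 of their 10 windows, against 1480 of 32851 windows of the same length in the RefSeq table (4.51%). It was not found in the windows of Rela and Nfkbib, which says only that these letters are not there. Counted from the annotated start at 0, the Rel matches began at -92 and -91, the Nfkbia match at -29, and the Tnfaip3 matches at -125 and -12. The window shown for Nfkb2 held matches that began at -39, -38 and -11. The other 2 windows of Nfkb2 overlap each other and share 1 match, which is counted in both. A match describes letters and is not a binding site. The GRCm38.p6 annotation places Rela on chromosome 19 from 5637442 to 5648134, Rel on chromosome 11 from 23736847 to 23770969, and Nfkb2 on chromosome 19 from 46300994 to 46312400.

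Levels are log2 signal minus the array's 75th percentile, so that 0 marks the percentile itself. That percentile lay between 152 and 529 intensity units, and it was 152 to 237 in wild type saline, 179 to 283 in transgenic saline, 201 to 410 in wild type cerulein and 265 to 529 in transgenic cerulein arrays. The share of probes flagged above background ran from 54.9% to 65.2% in wild type saline arrays and from 65.1% to 76.0% in wild type cerulein arrays. The arrays lay on 3 slides, of which slide 2 held cerulein arrays only (wild type 11 and 12, transgenic 16). All 13 acinar marker genes were well above background on all 15 arrays, and their mean level per array was 8.27 to 9.78. Btc was read at -4.41 ± 0.80 (SD, n = 4) in wild type and -3.86 ± 0.38 (n = 3) in transgenic saline arrays and did not differ by the test (0.55 ± 0.49 SE, adjusted p = 1). Whether its probe matches the transgene is not given in the sources used here, so this value checks nothing about the labels.

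The first question was which members cerulein changed within each genotype. Among the 10 genes, Rela rose in both genotypes, and no member fell. Rela, which encodes the activating subunit p65, rose 3.81-fold in wild type and 4.38-fold in transgenic pancreas. Rel, which encodes the subunit c-Rel, was also called, but 0 of 4 wild type and 0 of 3 transgenic saline arrays read it above background. It passed the filter through its cerulein arrays alone, so no size of a change is given for it. Nfkb1, Nfkb2 and the 5 inhibitors did not pass the test in either genotype on any probe with the main scaling and fit. Relb passed on its dimmer probe in transgenic mice, and in wild type mice with slide as a block or with array weights. Some other settings also called Nfkb1 and Nfkb2 in transgenic mice, Nfkb2 in wild type mice, and a dimmer probe of Nfkbib. Called means an adjusted p below 0.05 in limma, with Benjamini-Hochberg adjustment over all kept probes. Calls higher after cerulein covered 4.86% of 17337 genes in wild type and 4.29% in transgenic mice, and calls lower covered 6.36% and 2.73%. With 2 of 10 members called higher in each genotype, Rel among them, nothing particular to the family is read from the count. Since whole tissue was measured, fewer cells of a type and less RNA in each cell cannot be told apart.

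**Figure D1:**
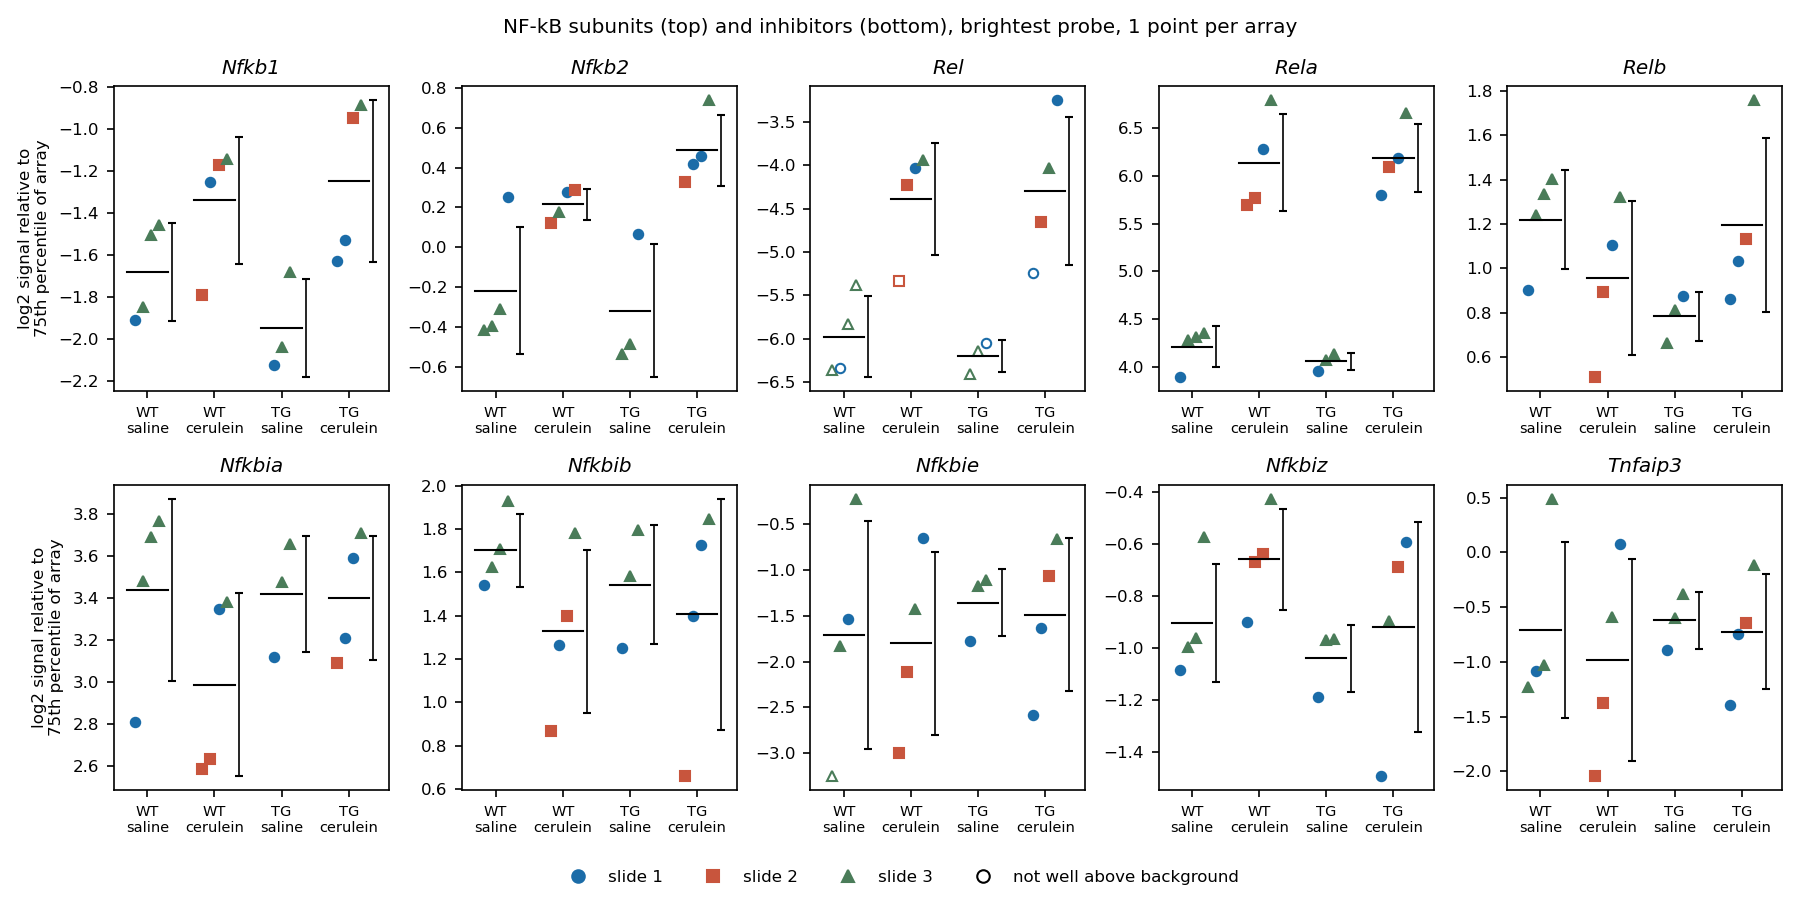
Level of each member on every array (log2 signal relative to the array's 75th percentile, brightest probe), with group means as lines, SD as bars, slides by colour and shape, and open points for arrays not well above background; each panel has its own scale. For Rela the 8 cerulein arrays of both genotypes lie at 5.70 or higher and the 7 saline arrays at 4.36 or lower, while the inhibitors' groups overlap.

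Rela stood at 3.89, 4.28, 4.31 and 4.36 on the wild type saline arrays (replicates 5 to 8). After cerulein it stood at 6.29, 6.80, 5.70 and 5.77 (replicates 9 to 12). The ranges were more than 1 log2 unit apart. The transgenic saline arrays read 3.96, 4.07 and 4.13 (replicates 2 to 4). The transgenic cerulein arrays read 5.80, 6.19, 6.67 and 6.09 (replicates 13 to 16). In both genotypes the slide 3 cerulein array was the highest of its group.

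The rise of Rela was 1.93 ± 0.26 (SE, adjusted p = 0.0003533) in wild type and 2.13 ± 0.28 (adjusted p = 0.0004117) in transgenic mice, which placed Rela at rank 330 and rank 231 among 17337 genes ordered from the largest increase. Fitted with slide as a block, the differences were 2.32 and 2.40. Within slide 1 they were 2.40 in wild type and 2.04 in transgenic mice, and within slide 3 they were 2.48 and 2.56. Slide 1 held 1 saline array of each genotype, and slide 3 held 1 cerulein array of each. Every within-slide difference given here and below thus rests on a single array on at least 1 side. Rela was called in 15 of 15 fits that each left out 1 array, with adjusted p up to 0.001821 in wild type and 0.00348 in transgenic mice. A single probe reads this gene. The genes whose levels followed Rela most closely over the 15 arrays were Gch1 (r = 0.994), Hmces (r = 0.994) and Csrp1 (r = 0.993); the arrays share treatment, slide and scaling.

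Rel was not well above background on any of the 7 saline arrays, and it was above background on 3 of 4 cerulein arrays of each genotype. Wild type saline arrays read -6.33, -6.36, -5.83 and -5.38 (replicates 5 to 8). Wild type cerulein arrays read -4.04, -3.94, -4.23 and -5.34 (replicates 9 to 12), of which replicate 12 was not above background. Replicate 12 stood just above the highest saline array, and the other 3 stood apart from all saline arrays. The transgenic saline arrays read -6.04, -6.14 and -6.40. The transgenic cerulein arrays read -3.25, -5.24, -4.03 and -4.65 (replicates 13 to 16), with replicate 14 not above background.

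The limma test of Rel gave an adjusted p of 0.0257 in wild type and 0.0199 in transgenic mice. No saline signal was well above background, so its fitted differences measure no size. Set against the lowest signal that counts as above background, the cerulein mean gives no lower bound above 1, so no fold is stated. With normexp background correction the sign of the fitted difference turned (-0.28, adjusted p = 0.3422, and -0.20, adjusted p = 0.556), and in the deposited series table the differences of Rel were 0.47 (adjusted p = 0.2882) and 0.72 (adjusted p = 0.1973). Leaving out saline replicate 5, 6 or 7, or cerulein replicate 9 or 11, took the wild type value past the threshold (adjusted p up to 0.0865), as leaving out saline replicate 3 or 4 did in transgenic mice (adjusted p up to 0.09457). Lmbr1l (r = 0.952), Serpina7 (r = 0.946) and Ngly1 (r = 0.942) followed Rel most closely over the 15 arrays, of which 6 read Rel above background.

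Nfkb2 encodes p100, which is cut to the subunit p52 in the non-canonical branch of the pathway. It read 0.25, -0.40, -0.42 and -0.31 on wild type saline arrays (replicates 5 to 8) and 0.28, 0.18, 0.29 and 0.12 on wild type cerulein arrays (replicates 9 to 12). Saline replicate 5, the only array of its group on slide 1, lay among the cerulein arrays. In transgenic mice Nfkb2 read 0.07, -0.48 and -0.54 after saline and 0.42, 0.46, 0.74 and 0.33 after cerulein, and the groups did not overlap. The differences were 0.43 ± 0.21 (SE, adjusted p = 0.2038) in wild type and 0.80 ± 0.23 (adjusted p = 0.0505) in transgenic mice, neither of them called. With slide as a block the transgenic difference of 0.74 was called (adjusted p = 0.0165). It was also called with normexp correction, with quantile normalization, in the deposited series table, with only probes above background on all arrays, with 1 probe a gene and with array weights (adjusted p = 0.0007413 to 0.03699). It was not called without slide 2 or with no filter. Of 15 fits that each left out 1 array, 3 called it, and the adjusted p went up to 0.2332. Within slide 1 the differences were 0.02 in wild type and 0.37 in transgenic mice, and within slide 3 they were 0.55 and 1.25.

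Nfkb1 encodes p105, the precursor of p50, the usual partner of p65. Its brightest probe read -1.91, -1.85, -1.46 and -1.50 in wild type saline mice and -1.25, -1.15, -1.17 and -1.79 in wild type cerulein mice, and the groups overlapped through cerulein replicate 12. Transgenic mice read -2.12, -2.04 and -1.68 after saline and -1.53, -1.63, -0.89 and -0.95 after cerulein, with no overlap. The differences of 0.34 ± 0.24 (SE, adjusted p = 0.3635) and 0.70 ± 0.26 (adjusted p = 0.1394) did not pass the test. With slide as a block the transgenic difference of Nfkb1 was 0.81 and was called (adjusted p = 0.02309). The second probe of Nfkb1 gave 0.03 ± 0.30 in wild type and 0.31 ± 0.33 in transgenic mice, and with slide as a block 0.51 (adjusted p = 0.0785) and 0.66 (adjusted p = 0.02452), the latter called. Nonoverlapping higher values after cerulein thus occurred for 2 members in wild type (Rela and Rel), against 7.34% of genes. In transgenic mice they occurred for 4 (with Nfkb1 and Nfkb2), against 9.95%. No saline array read Rel well above background.

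The probes of Relb, whose product pairs mainly with p52, differed from each other. The brightest (A_55_P2168736) averaged 1.22 ± 0.22 (SD, n = 4) in wild type saline and 0.96 ± 0.35 (n = 4) in wild type cerulein mice, and 0.78 ± 0.11 (n = 3) and 1.20 ± 0.39 (n = 4) in transgenic mice. Its differences of -0.26 (adjusted p = 0.477) and 0.41 (adjusted p = 0.431) were not called. The second probe (A_51_P389751) read -0.85, -0.24 and -0.26 on transgenic saline arrays and 0.51, 0.98, 1.87 and 1.19 on transgenic cerulein arrays (replicates 13 to 16). These transgenic groups did not overlap, and the probe rose by 1.59 ± 0.40 (SE, adjusted p = 0.03049); 3.29% of all kept probes were called higher in this comparison. In wild type mice the same probe read -0.97, -0.23, 0.06 and 0.39 after saline and 0.90, 1.15, -0.24 and 0.53 after cerulein, a difference of 0.77 ± 0.37 (adjusted p = 0.1999) with overlapping groups. Over all settings tried the transgenic call of this probe held in 17 of 23, and with slide as a block the differences were 1.24 in wild type (adjusted p = 0.01156) and 1.96 in transgenic mice (adjusted p = 0.0005885), both called. With array weights the wild type difference of 0.82 was called too (adjusted p = 0.0261). That fit called 16387 of 42180 kept probes in wild type mice, against 3779 in the main fit. Within slide 1 that probe gave 1.87 and 1.60, and within slide 3 1.08 and 2.12, in wild type and transgenic mice.

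**Figure D2:**
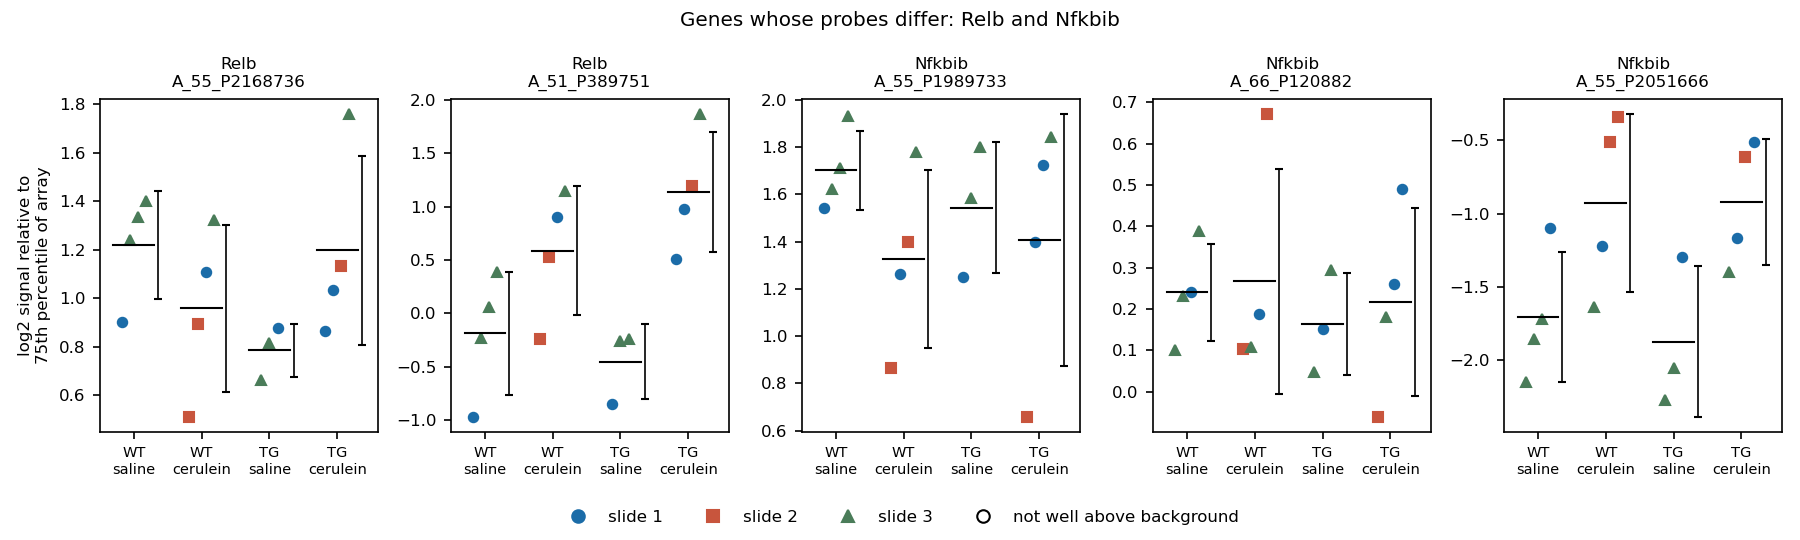
Level on every array for the 2 probes of Relb and the 3 probes of Nfkbib (log2 signal relative to the array's 75th percentile), with group means as lines, SD as bars and slides by colour and shape. The Relb probe A_51_P389751 lies between -0.85 and -0.24 in transgenic saline and between 0.51 and 1.87 in transgenic cerulein arrays, a gap that the other Relb probe does not show.

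Among the inhibitors, Nfkbia, which encodes IkB-alpha, is the classical early target of NF-kB. It read 2.81, 3.48, 3.69 and 3.77 in wild type saline mice and 3.35, 3.38, 2.59 and 2.64 in wild type cerulein mice. The lowest cerulein values were the slide 2 arrays, and the lowest saline value was the slide 1 array. Transgenic mice read 3.12, 3.66 and 3.48 after saline and 3.59, 3.21, 3.71 and 3.09 after cerulein, which overlap throughout. The differences of Nfkbia were -0.45 ± 0.27 (SE, 95% interval -1.04 to 0.14, adjusted p = 0.3041) and -0.02 ± 0.30 (-0.65 to 0.62, adjusted p = 0.983). With slide as a block they were -0.02 and 0.27, and within slide 1 and slide 3 they were 0.53 and -0.27 in wild type and 0.28 and 0.14 in transgenic mice. At 3 h neither an increase nor a decrease of Nfkbia was detectable with these arrays.

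Nfkbib encodes IkB-beta. Its brightest probe averaged 1.70 ± 0.17 (SD, n = 4) and 1.33 ± 0.38 (n = 4) in wild type saline and cerulein mice, and 1.54 ± 0.28 (n = 3) and 1.41 ± 0.53 (n = 4) in transgenic mice. The differences of -0.37 ± 0.27 and -0.14 ± 0.29 did not pass the test (adjusted p = 0.3844 and 0.843). The other probes of Nfkbib gave 0.03 and 0.05 (A_66_P120882), and 0.78 ± 0.34 and 0.95 ± 0.37 (A_55_P2051666, adjusted p = 0.1717 and 0.1689), again with no call in the main fit. A_55_P2051666 was called in 1 of 23 other settings in each genotype. In wild type mice that setting was array weights (0.78, adjusted p = 0.0244), which called 16387 of 42180 kept probes. The highest values of that last probe were on the slide 1 and slide 2 cerulein arrays, and within slides its differences were -0.13 to 0.76.

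Nfkbie, which encodes IkB-epsilon, and Tnfaip3, which encodes the deubiquitinase A20, had the largest standard errors of the 10 members. Nfkbie read -1.53, -1.83, -3.25 and -0.23 on wild type saline arrays (replicates 5 to 8, replicate 7 not above background) and -0.65, -1.43, -3.00 and -2.12 on wild type cerulein arrays (replicates 9 to 12). Within either wild type group the spread was wider than any difference between group means. In transgenic mice Nfkbie ranged from -1.78 to -1.11 after saline and from -2.58 to -0.66 after cerulein. Its differences of -0.09 ± 0.61 and -0.13 ± 0.66 (adjusted p = 0.9308 and 0.9393) leave 95% intervals from -1.39 to 1.21 and from -1.54 to 1.28.

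Tnfaip3 read -1.08, -1.03, -1.23 and 0.49 in wild type saline mice (replicates 5 to 8) and 0.08, -0.59, -2.04 and -1.38 in wild type cerulein mice (replicates 9 to 12). Saline replicate 8 was the highest of all 15 arrays. Transgenic mice read -0.89, -0.38 and -0.60 after saline and -0.74, -1.40, -0.12 and -0.65 after cerulein. The Tnfaip3 differences were -0.27 ± 0.46 (adjusted p = 0.7113) and -0.10 ± 0.50 (adjusted p = 0.9353), and with slide as a block they were 0.24 and 0.22. Nfkbiz, whose product is a nuclear IkB protein that tunes a subset of targets, ranged from -1.08 to -0.57 in wild type saline and from -0.90 to -0.43 in wild type cerulein mice. Its differences were 0.25 ± 0.22 and 0.12 ± 0.24 (adjusted p = 0.4758 and 0.8257).

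**Figure D3:**
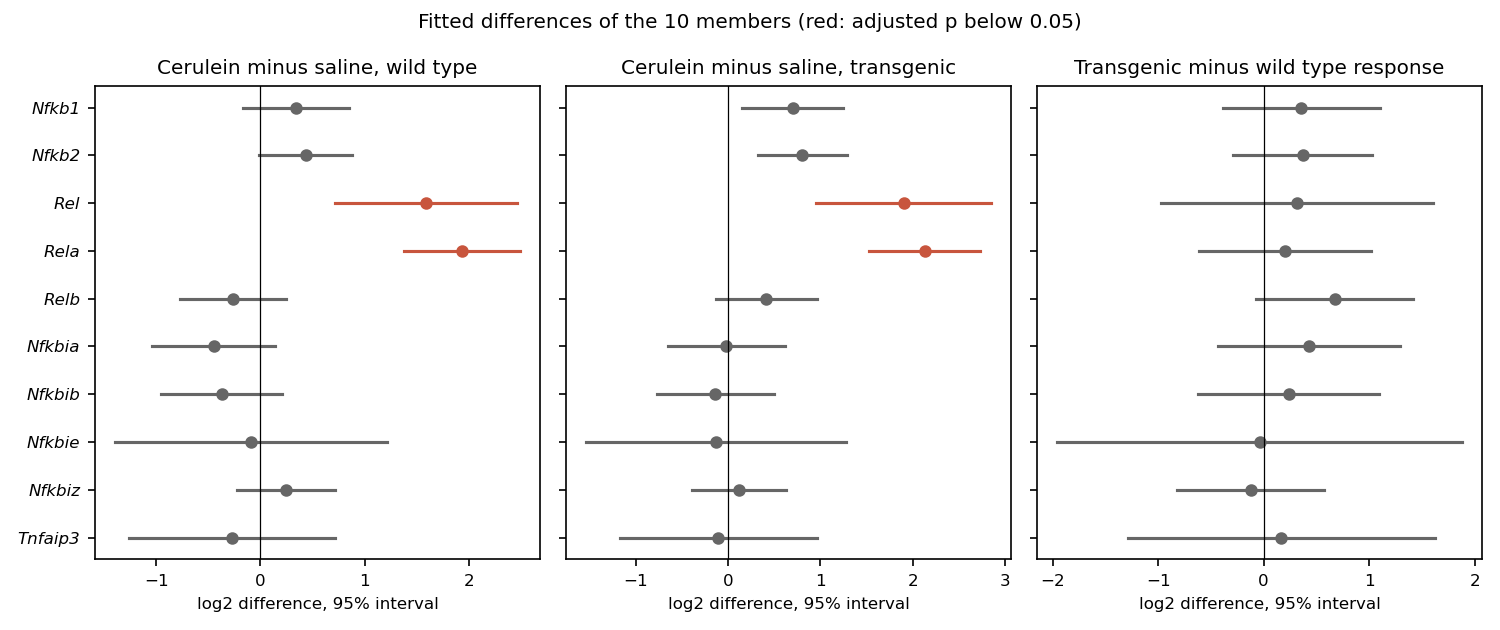
Fitted log2 differences of the 10 members with 95% intervals, for cerulein minus saline in wild type (left) and transgenic mice (middle) and for the transgenic minus the wild type response (right); red marks an adjusted p below 0.05. The intervals of Rela lie above 0 in both genotypes, and all 10 intervals of the right panel include 0. The points of Rel rest on saline arrays not well above background and show no size.

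The next question was whether the genotypes differed. After saline no member was called between transgenic and wild type mice, and none had an unadjusted p below 0.05 (lowest adjusted p = 1), against 8 genes of 17337 called (0.0461%). The lowest difference was that of Relb on its brightest probe, -0.44 ± 0.26 (SE), where the transgenic saline arrays read 0.88, 0.81 and 0.66 and the wild type arrays 0.90 to 1.40, without overlap. On the second probe of Relb the difference was -0.26 ± 0.40, with overlapping groups. Of all genes, 2.21% were lower without overlap in this comparison, so 1 member of 10 is not a result about the family. After cerulein, again none was called and none had an unadjusted p below 0.05 (lowest adjusted p = 0.7908, Nfkbia 0.41 ± 0.27), against 16 genes (0.0923%). The arrays of Nfkb2 lay higher without overlap (0.27 ± 0.21, adjusted p = 0.8089), as were 1.57% of genes.

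The genotypes' responses to cerulein were compared by the interaction term. No member was called (lowest adjusted p = 0.9999), none had an unadjusted p below 0.05, and no gene of the 17337 was called either (0%). For Rela the transgenic response exceeded the wild type one by 0.20, with a 95% interval from -0.62 to 1.02. The difference was 0.43 (-0.43 to 1.30) for Nfkbia and 0.17 (-1.29 to 1.62) for Tnfaip3. For Rel none is given because neither saline group was well above background. Relb had the largest value, 0.67 (-0.07 to 1.42), on its brightest probe. Its second probe gave 0.81 (-0.35 to 1.98). These intervals are wide, and a p that misses the threshold does not show equal responses. The median over the 9 members other than Rel was 0.24, beside a median of 0.07 over all genes. These members were read on the same arrays, so nothing particular to the family is read from that median. The saline groups enter the responses and the genotype difference alike, so the comparisons are not independent.

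Beyond the 10 members, lists of the pathway's other genes were read by role. Each count stands beside the shares of all 17337 genes: 4.86% called higher in wild type and 4.29% in transgenic mice. The shares called lower were 6.36% and 2.73%. Kinases of the pathway had 1 called gene of 16 in wild type, Ikbkg, the regulatory subunit NEMO of the IKK complex, which rose by 1.16 ± 0.26 (SE, adjusted p = 0.01327) from a mean of -2.99 to -1.83. In transgenic mice none of the 16 was called by limma on its brightest probe, with 4 at an unadjusted p below 0.05 and a lowest adjusted p of 0.07267. The wild type call of this probe was lost with normexp correction (0.23, adjusted p = 0.3744). A dimmer probe of Ikbkg (A_51_P260300) was called in both genotypes, at 1.53 ± 0.43 (adjusted p = 0.04025) and 1.91 ± 0.47 (adjusted p = 0.02596). The median difference of the kinases was 0.08 in wild type and 0.12 in transgenic mice, beside -0.06 over all genes in each.

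Receptors that feed the pathway had 2 called of 19 in wild type and 3 in transgenic mice, all higher, against 4.86% and 4.29% of all genes. Tnfrsf12a, the receptor of the cytokine TWEAK, rose 30.3-fold in wild type (4.92 ± 0.31, adjusted p = 6.556e-07) and 30.6-fold in transgenic mice (4.94 ± 0.34, adjusted p = 3.061e-06). Tlr2, a receptor for bacterial lipoproteins, rose by 1.83 ± 0.32 and 1.98 ± 0.35, and by 1.02 and 1.26 with normexp correction. Tnfrsf1a, the main receptor for TNF, rose in transgenic mice (1.02 ± 0.28, adjusted p = 0.04433), a call that held in 11 of 24 settings; its other probe gave 0.83 ± 0.26 (adjusted p = 0.07886). Of 8 measured ligand genes none was called by limma in either genotype, with 3 and 4 at an unadjusted p below 0.05 (lowest adjusted p = 0.05754 and 0.1218).

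Of 22 adaptors and ubiquitin ligases, 2 rose in each genotype, the same 2 in both, against 4.86% and 4.29% of all genes. Bcl10 and Tirap, adaptors of the CARD-BCL10-MALT1 complex and of Toll-like receptors, rose by 0.95 ± 0.25 and 1.08 ± 0.26 in wild type and by 1.35 ± 0.27 and 1.17 ± 0.28 in transgenic mice. Malt1, the protease that works with BCL10, was called lower in wild type mice (-1.31 ± 0.38, adjusted p = 0.04733), with overlapping groups and a call in 10 of 24 settings.

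Other inhibitors and modulators had 3 genes higher of 20 in each genotype, against 4.86% and 4.29% of all genes. Zfp36, which speeds the decay of cytokine messages, rose by 3.06 ± 0.48 and 4.01 ± 0.52, and Zc3h12a, a ribonuclease with related targets, by 2.60 ± 0.38 and 2.98 ± 0.41. With normexp correction these rises were 2.01 and 2.76 for Zfp36 and 1.23 and 1.57 for Zc3h12a, all called. Tnip2, a partner of A20, rose by 0.79 ± 0.20 and 0.81 ± 0.21, the transgenic call holding in 13 of 24 settings. Its other probe gave 0.84 ± 0.25 and 0.95 ± 0.27 (adjusted p = 0.05122 and 0.05325). Nkiras1, which binds IkB proteins, fell by 1.05 ± 0.24 in wild type mice (adjusted p = 0.01378); it was named after its value was seen.

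**Figure D4:**
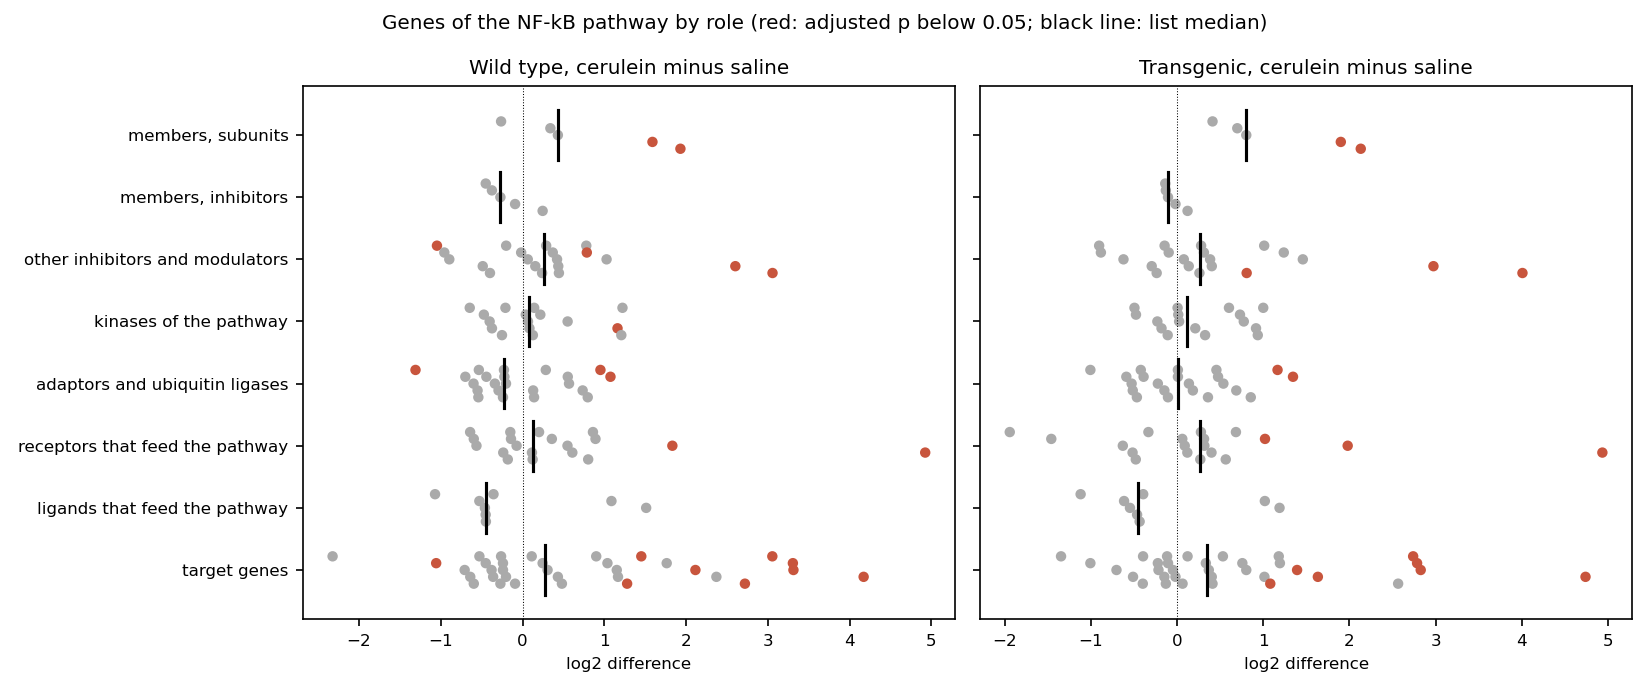
Cerulein minus saline log2 differences of the measured genes of each role, for wild type (left) and transgenic mice (right), 1 point per gene, red for an adjusted p below 0.05 and a black line at each list's median. The red points of the 2 upper rows are Rela and Rel only, Rel against saline arrays not well above background. The largest value in the receptor row is Tnfrsf12a at 4.92 and 4.94.

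The list of target genes, which holds 6 of the members, had 8 of 34 measured genes higher and 1 lower in wild type, and 7 higher in transgenic mice. Of all genes, 4.86% were called higher and 6.36% lower in wild type, and 4.29% higher in transgenic mice. No member was among the called targets. The counts include Cxcl1 in both genotypes, and Saa3 and Ccl3 in wild type, whose saline arrays there were not well above background. Nothing particular to the list is therefore read from the counts. Cxcl1, a chemokine that attracts neutrophils, was well above background on no saline array and on all 8 cerulein arrays. It thus passed the filter through its cerulein arrays alone. Against the lowest signal flagged well above background on each saline array, its cerulein mean was 4.68-fold higher in wild type and 6.31-fold in transgenic mice. The limma adjusted p of 6.691e-07 and 1.288e-06 rest on saline signals not well above background. These folds hold for the main scaling only and are not lower bounds under other settings. With normexp correction the log2 differences of Cxcl1 were 0.76 and 1.00 (adjusted p = 0.0104 and 0.003317), and in the series table they were 2.52 and 2.84. Ccl2, a chemokine for monocytes, rose 7.10-fold in transgenic mice (2.83 ± 0.33) and 9.89-fold in wild type (3.31 ± 0.31), with a log2 difference of 1.81 in transgenic mice after normexp correction. Saa3, an acute phase gene, was not well above background on any wild type saline array. Against the lowest flagged signal it was 3.38-fold higher in wild type mice with the main scaling (limma adjusted p = 0.03768). That call held in 13 of 23 settings and was lost with normexp correction (0.47 on the log2 scale, adjusted p = 0.296). In transgenic mice the mean of Saa3 was -3.92 after saline, with 1 array well above background, and -3.55 after cerulein. The genes Junb, Ier3, Lcn2 and Ccl3, noted after their values were seen, were also called higher in both genotypes. In wild type Ccl3 was not well above background on any saline array, so that call rests on low saline signals. How these calls held under other settings is not given. The single lower gene was Ccnd1, which encodes cyclin D1 (-1.06 ± 0.28, adjusted p = 0.03018). The list's median difference was 0.28 in wild type and 0.35 in transgenic mice, beside -0.09 and 0.12 over the 9 members other than Rel.

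Markers of other cells were read because whole pancreas also holds blood and immune cells, in which NF-kB genes are active. Of 10 measured neutrophil markers, 4 rose after cerulein in wild type and 1 in transgenic mice. Among all genes, 4.86% and 4.29% were called higher, and 6.36% and 2.73% lower. The mean level of the neutrophil markers per array went from a range of -2.45 to -1.39 to one of -1.34 to -0.33 in wild type. In transgenic mice that range was -1.24 to -0.29 after saline and -0.98 to -0.15 after cerulein. Of 11 macrophage and monocyte markers 1, Cd14, rose in each genotype, and no marker of B lymphocytes, T lymphocytes or dendritic cells was called. Ngp and Xcr1 were above background on fewer than 3 arrays. The acinar markers had a median difference of -0.77 in wild type, with 12 of 13 at an unadjusted p below 0.05 and 1 called in each direction, and of -0.70 in transgenic mice, with 7 of 13 and again 1 called in each direction. Their mean level per array was 9.08 to 9.78 in wild type saline and 8.36 to 9.50 in wild type cerulein mice, and 8.85 to 9.56 and 8.27 to 9.13 in transgenic mice. Islet markers had medians of -0.64 and -0.45 and endothelial markers of -0.42 and -0.36, with none called by limma and at most 3 of a list at an unadjusted p below 0.05. The part of any of these cells in the differences of the members was not tested.

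The levels of Nfkbie and Tnfaip3 were set against the mean level of each leukocyte list on the same arrays. Over the 15 arrays Nfkbie correlated with the mean of 11 T lymphocyte markers (Pearson r = 0.768, permutation p = 0.00114, Spearman rho = 0.771, permutation p = 0.0013), and r was 0.814 without the 2 arrays farthest from the median. Among the 40 pairs of a member and a leukocyte list the adjusted p was 0.0456, and after removing group means r was 0.791 (adjusted p = 0.1571). For Tnfaip3 r was 0.704 (permutation p = 0.00405, adjusted p = 0.081) and rho 0.682 (permutation p = 0.00719), with r = 0.773 without the 2 farthest arrays and 0.720 after removing group means (adjusted p = 0.1681). With macrophage and monocyte markers r was 0.661 for Nfkbie (adjusted p = 0.09813) and 0.536 for Tnfaip3 (adjusted p = 0.2825), and without the 2 farthest arrays it was 0.254 and 0.263. After removing group means these values were 0.840 (adjusted p = 0.0756) and 0.740 (adjusted p = 0.2588), both higher than those with T lymphocyte markers. B lymphocyte markers gave 0.589 and 0.408 (adjusted p = 0.2048 and 0.4936), with 0.129 and 0.078 without the 2 farthest arrays, and neutrophil markers gave 0.210 and 0.126. Whether the relation with T lymphocyte markers differs from that with the other lists was not tested. On slide 3, with 7 arrays, r with the T lymphocyte markers was 0.936 for Nfkbie and 0.831 for Tnfaip3. There it was 0.854 and 0.637 with macrophage and monocyte markers, 0.792 and 0.718 with B lymphocyte markers, and 0.473 and 0.234 with neutrophil markers. The other slides held too few arrays. With group means and the 2 farthest arrays removed, r was 0.589 and 0.683 with T lymphocyte markers. It was then 0.698 and 0.639 with macrophage and monocyte markers, and 0.198 and 0.113 with B lymphocyte markers. The T lymphocyte marker mean ranged from -1.91 (replicate 7) to 1.74 (replicate 8) within the wild type saline group alone. These relations were computed after the spread of the members had been seen.

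**Figure D5:**
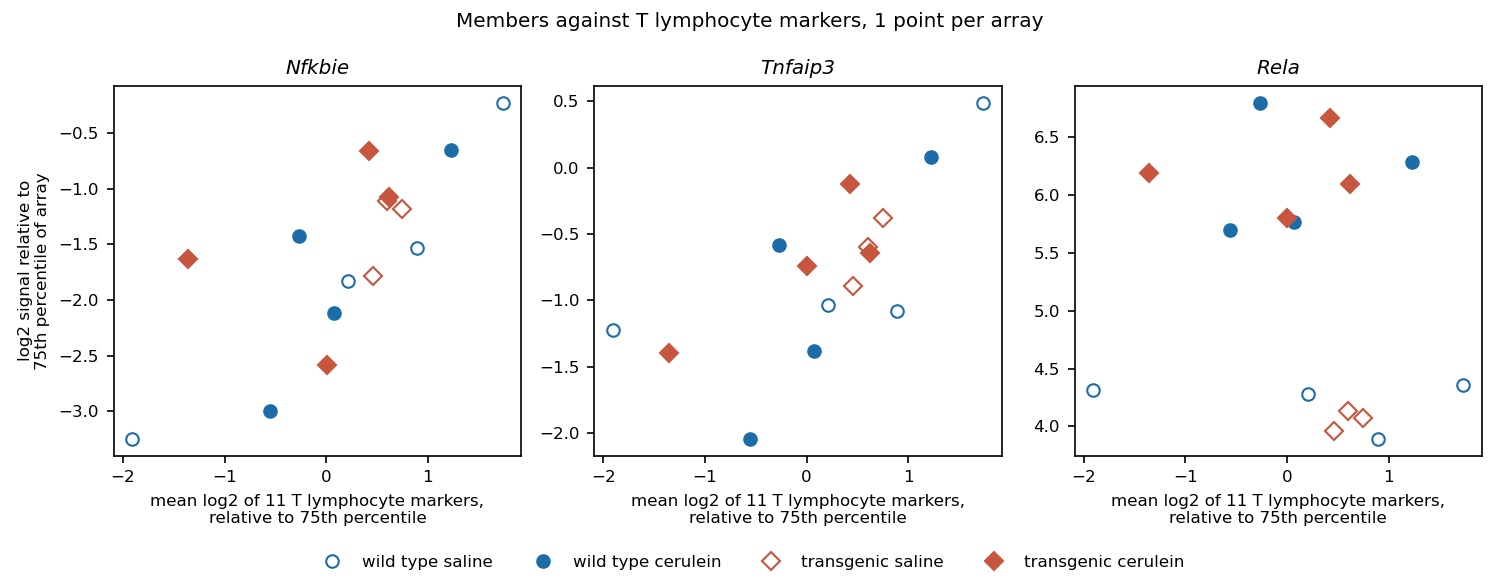
Level of Nfkbie, Tnfaip3 and Rela on each array against the mean level of 11 T lymphocyte markers (both as log2 signal relative to the array's 75th percentile), with open symbols for saline and filled symbols for cerulein. Over the 15 arrays Nfkbie and Tnfaip3 were higher where the marker level was higher (r = 0.768 and 0.704), a relation not tested within single groups, while Rela divides by treatment at any marker level.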

How the data were processed

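The authors deposited the scanner output of 15 arrays, whose spot signals are in units of fluorescence intensity and, per the file headers, come from Agilent Feature Extraction 10.7.3.1, with background subtraction and spatial detrending inside each array. The deposited flags are 0 or 1 values of each spot (an other unit). The deposited series table holds the authors' log2 values after normalization across arrays, whose method is not stated in these sources. Set against each array's own log2 signal, its 42482 probes gave r = 0.987 to 0.998, and its column medians were 6.56 to 6.93; how its arrays were centred stays unknown.

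Spots of a probe were averaged after flagged spots (105 to 188 for each array) were left out; no probe was saturated. Accessions were matched to RefSeq symbols, which named 27235 of 55681 probes. The log2 processed signal minus each array's 75th percentile was fitted for 42180 kept probes with limma 3.58.1 in R 4.3.3 (lmFit and eBayes, 4 group means of all 15 arrays, 11 residual and 3.26 prior degrees of freedom). Tests were two-sided with Benjamini-Hochberg adjustment over all kept probes. The fit was tested on simulated data. Errors of differences are standard errors, and the number of arrays limits the precision. Where a probe was not well above background on any array of a group, the fold was taken against the lowest signal flagged well above background. Such a fold holds for the main scaling only.

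The members, the 6 lists of pathway genes, the 12 lists of cell markers and the rule for named genes were chosen with earlier results of these data known. The rule names every member, the 2 called genes with the largest change of each pathway list in each genotype (all where 3 or fewer were called), and the 3 genes most like Rel and Rela. Other settings were slide as a block or within slides, normexp (on median in place of mean signals), quantile normalization, the series table, other filters, 1 probe a gene, array weights and leaving out each array. The labels number the animals separately, so each array stands for its own animal. The main fit has no slide term, so its p-values measure the spread between animals together with that between slides.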

Additional observations from a re-analysis of the deposited data

Results flagged for a closer look

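Among 42 sets of 4 arrays of 1 group and 1 member probe, 4 had an array far from the other 3 by Dixon's test; chance flags about 1 in 20. Tnfaip3 stood at 0.49 on wild type saline replicate 8 and at -1.23 to -1.03 on the other 3 arrays of the group. The same array had the highest mean of T lymphocyte markers (1.74) and of B lymphocyte markers (-0.06). The probe A_66_P120882 of Nfkbib stood at 0.67 on wild type cerulein replicate 11 and at 0.10 to 0.19 on the others. Nfkb1 stood at -1.79 on wild type cerulein replicate 12, against -1.25 to -1.15. Nfkb2 stood at 0.25 on wild type saline replicate 5, against -0.42 to -0.31, and replicate 5 was the only array of that group on slide 1. The causes were not tested.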

How the results depend on the processing

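No paired analysis was possible because no replicate number is shared between groups. The calls of Rela held under every setting that gave a test. The 2 calls of Rel, whose saline arrays were not well above background, depended on the processing. With normexp correction Rel was -0.2792 in wild type and -0.2049 in transgenic mice. Members called in wild type numbered 1 instead of 2 with normexp, in the series table and with only probes above background on all arrays, and 1 to 2 when each array was left out. With array weights they numbered 3 (Nfkb2, Rel and Rela), where 16387 of 42180 kept probes were called. With only probes above background on all arrays 8 members were measured, Rel not among them. In transgenic mice the members called numbered 4 with slide as a block, 3 with quantile normalization, 1 probe a gene or array weights, and 1 to 3 when each array was left out. Of 42180 kept probes, 7120 were called with slide as a block, 3279 with quantile normalization and 13620 with array weights. With 1 probe a gene, 1422 of 17337 were called. Nothing particular to the members is read from these counts. The cause of the changes in count was not tested. Over all members and comparisons the sign changed in 2 of 102 settings of called differences and in 133 of 1198 settings of differences not called.

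Kept probes called in wild type numbered 3779, with 6053 for slide as a block, 2392 without slide 2, 2417 with 1 probe a gene, 16387 with array weights and 2127 to 7295 when each array was left out. In transgenic mice 2492 became 7120 with slide as a block, 1422 with 1 probe a gene, 13620 with array weights and 1102 to 3039 when each array was left out. The genotype difference after saline gave 10, with 20 for slide as a block, 321 with array weights and 5 to 12 when each array was left out. After cerulein it gave 25, with 103 for slide as a block, 7 without slide 2, 56 with array weights and 14 to 37 when each array was left out. The difference between responses gave 0, with 1 for slide as a block, 1 with array weights and 0 when each array was left out. The share of called probes that were higher was 45.2% in wild type and 55.7% in transgenic mice; it was 25.6% and 39.6% with normexp, and 63.2% and 58.7% with slide as a block. In wild type it was 35.0% with only probes above background on all arrays, and in transgenic mice 42.6% with array weights. Low signal limits Rel, which was not well above background in any saline array.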

Other observations

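Over the 15 arrays, given as a description with no test, the levels of Rel and Rela correlated at r = 0.853, with no saline array reading Rel well above background. Nfkb1 and Rela correlated at 0.766 and Nfkb2 and Rela at 0.755. The arrays share their treatment, slide and scaling. With slide means removed the 3 values were 0.848, 0.796 and 0.812. Relb on its brightest probe and Rela gave 0.302, and Nfkbia and Rela -0.118. Nfkbie and Tnfaip3, which did not follow treatment, correlated with each other at 0.828, and at 0.823 with slide means removed.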
